A study of Mus musculus with 8 samples.

Results

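Liver converts most dietary tryptophan to kynurenine and then either burns the carbon or turns it into the cofactor NAD. The genes described here are 10 enzymes of this route, chosen by name with earlier results of these data known. They were found as 10 of the 52636 Ensembl genes in the deposited count tables. Tdo2 and Afmid make kynurenine, Kmo, Kynu and Haao carry it down the trunk of the pathway, and Aadat draws kynurenine off to kynurenic acid. At the end of the trunk Acmsd sends the last intermediate towards energy production, whereas Qprt takes its product quinolinate into NAD. Nampt recycles nicotinamide into NAD and Nnmt removes nicotinamide by methylation. Tdo2 is known as an enzyme of hepatocytes, and the NAD made by this route can leave the liver as nicotinamide for other tissues.

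The livers came from 8 male C57BL/6J mice fed the MASH diet, which is high in fat, fructose and cholesterol, for 24 weeks. An adeno-associated virus (AAV8) was given at 7 weeks of age and the diet began at 8 weeks. The 4 AAV8-GFP mice (303, 311, 314 and 315) received green fluorescent protein and the 4 AAV8-AGXT mice (308, 309, 316 and 319) received human AGXT, the enzyme that converts glyoxylate to glycine, both under the hepatocyte-specific TBG promoter. All mice kept their own Agxt gene, all ate the diet, and mice without virus or on other diets were not analysed here. The comparison asks how the RNA of these enzymes differed between diet-fed livers with and without extra AGXT.

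Each mouse gave 1 library, with 17095433 to 28780140 read pairs assigned to genes. Levels are given as CPM (a gene's count relative to the total of its library), scaled between mice by the TMM factors of edgeR, which assume that most genes do not differ. These factors were 1.02 to 1.14 in AAV8-GFP mice and 0.83 to 1.00 in AAV8-AGXT mice, without overlap. Each of the 10 genes passed the low-count filter, with 152 to 25346 raw counts per mouse. Counting error was small for the genes with many counts. It was a larger part of the spread for Acmsd (152 to 364 raw counts) and Afmid (213 to 417). Mouse Agxt, to which the human transgene is related, was 148 to 180 CPM in AAV8-GFP mice and 201 to 405 CPM in AAV8-AGXT mice, without overlap, and whether transgene reads contributed was not tested. The 9 hepatocyte markers were present in every mouse and together reached 55413 to 65001 CPM in AAV8-GFP mice and 67166 to 95802 CPM in AAV8-AGXT mice, also without overlap. Alb was the largest part of this sum, at a mean of 29998 and 37995 CPM. With the 9 markers weighted equally, as a mean of log2 CPM, the groups overlapped. The estimate was higher in AAV8-AGXT mice for 8 of the 9 and lower for 1, Tf, at a mean of 619 and 484 CPM.

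Of the 10 genes, 4 were higher in AAV8-AGXT livers at an adjusted p under 0.05 (edgeR quasi-likelihood test, Benjamini-Hochberg over 15248 genes) and 0 were lower. These were Tdo2, Afmid, Kmo and Aadat, that is, Tdo2 and Afmid on the way to kynurenine, and Kmo and Aadat, which use it. In the same test 4.35% of all genes were called, 2.45% as higher and 1.9% as lower. In TMM-scaled CPM the 4 genes were also those whose groups did not overlap, against 8.93% of all genes that lay wholly higher in AAV8-AGXT mice. The median log2 fold change of the 10 genes was 0.50, against 0.02 over all tested genes. Because the 10 genes were chosen with earlier results known, these contrasts with all genes are a description. Scaling moved the split of calls over all genes, from 374 higher and 290 lower to 254 and 298 with upper-quartile scaling, to 144 and 857 with total counts, and to 68 and 632 with libraries scaled to the hepatocyte markers.

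**Figure D1:**
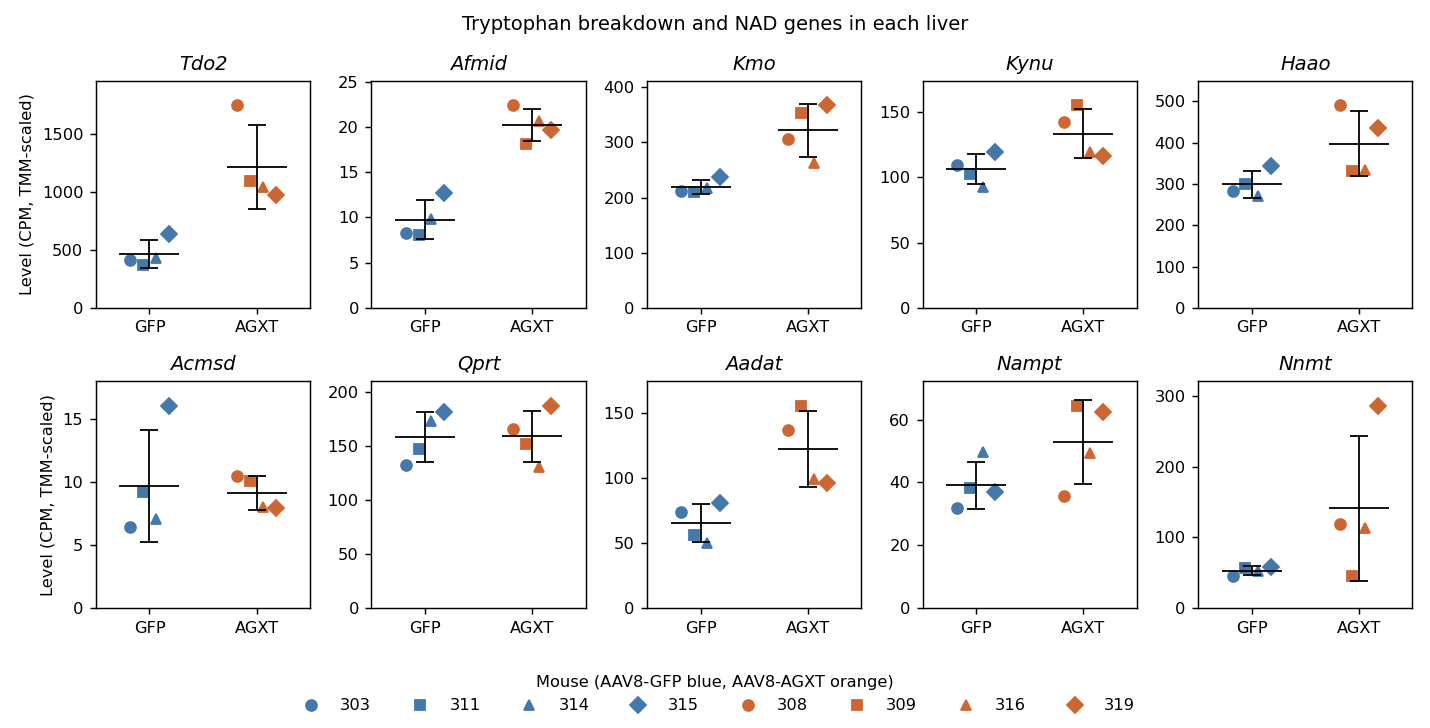
Level of each enzyme in every liver, in TMM-scaled CPM on linear axes from 0, for 4 AAV8-GFP mice (blue) and 4 AAV8-AGXT mice (orange); marker shape gives the mouse, the long line the mean and the bars the SD. Tdo2, Afmid, Kmo and Aadat separate the groups, Nnmt is spread from 45.4 to 286 CPM among AAV8-AGXT mice, and mouse 315 is the highest AAV8-GFP mouse for 9 of the 10 genes.

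To show the DNA next to the starts of these genes, the 250 bases before the RefSeq start (build GRCm38.p6) were read for 7 of the genes. The Nampt window lies wholly outside annotated exons and is given whole, as an example from the genes that were not called. For called genes a stretch of 30 bases around the match nearest the start is given, because these windows run into exons of other transcripts. Kmo, whose window matches none of the 6 motifs searched, is not shown. Capitals mark the matches, on either strand, to the motifs spelled out after the sequences.
Tdo2, chr3:81975729-81975758, minus strand: atctgggaaggttgataccattccTGACCT
Afmid, chr11:117825857-117825886, plus strand: gaactcaaaaggGGGCGGgacgaagacaag
Aadat, chr8:60506041-60506070, plus strand: ccctctgtggaTGGACTTTGtcccttctgc
Nampt, chr12:32820085-32820334, plus strand: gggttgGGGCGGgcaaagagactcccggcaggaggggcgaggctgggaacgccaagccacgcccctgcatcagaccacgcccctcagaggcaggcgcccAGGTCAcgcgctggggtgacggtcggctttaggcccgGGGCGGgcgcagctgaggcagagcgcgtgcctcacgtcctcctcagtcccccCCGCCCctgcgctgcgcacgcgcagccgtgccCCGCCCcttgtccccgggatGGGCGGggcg
The Nampt window is 75.6% G and C and holds 5 GC boxes (GGGCGG). Aadat is the only one of the 7 genes with the HNF4-type site (CAAAGTCCA), which 0.384% of the 32851 RefSeq windows contain. A nuclear receptor half-site (AGGTCA) is found before Tdo2, Haao and Nampt and in 14.0% of all windows, and a GC box before Afmid, Aadat and Nampt and in 32.7%. The Tdo2 window also holds a CCAAT box (spelled by its name, 33.8% of all windows) and a TATA box (TATAAA, 12.4%), the latter far from the start at position -229. No window of the 7 holds the E-box (CACGTG), which 6.02% of all windows hold, and the Qprt window, like that of Kmo, matches none of the motifs. None of the 6 motifs is found before all 4 called genes. No motif searched contains another, and a match is a description, not a binding site.

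Tdo2 (tryptophan 2,3-dioxygenase, ENSMUSG00000028011, chr3:81957090-81976202), which opens the tryptophan ring, was the most abundant of the 10 enzymes and rose in AAV8-AGXT livers. Its level was 412, 372, 432 and 639 CPM in AAV8-GFP mice 303, 311, 314 and 315, and 1750, 1099, 1047 and 972 CPM in AAV8-AGXT mice 308, 309, 316 and 319. Every AAV8-AGXT liver was above every AAV8-GFP liver, and mouse 308 stood far above its group. The log2 fold change was 1.39 ± 0.24 (SE, adjusted p = 0.0279 in edgeR), or 2.62-fold, and it was 1.15 (adjusted p = 0.0348) without mouse 308. The call was lost without mouse 303 (adjusted p = 0.0529), 311 (0.115), 314 (0.0819) or 319 (0.0728), while the fold change stayed between 1.15 and 1.59 over the 8 fits that each left out a mouse.

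Afmid (arylformamidase, ENSMUSG00000017718, chr11:117825924-117839908) removes the formyl group from the product of Tdo2 and so completes kynurenine. Its level was 8.32, 7.99, 9.83 and 12.7 CPM in AAV8-GFP mice 303, 311, 314 and 315, and 22.4, 18.1, 20.6 and 19.7 CPM in AAV8-AGXT mice 308, 309, 316 and 319. The AAV8-AGXT livers lay close together, with a coefficient of variation of 8.87%, and above all AAV8-GFP livers. The log2 fold change was 1.06 ± 0.16 (SE, adjusted p = 0.0246 in edgeR), or 2.08-fold. Leaving out mouse 311 (adjusted p = 0.108), 314 (0.0798) or 319 (0.0728) ended the call.

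Afmid starts head to head with Tk1, the gene of thymidine kinase on the opposite strand, and their exons share 83 bases. Tk1 was 11.2 ± 1.51 CPM in AAV8-GFP mice and 13.3 ± 3.41 CPM in those given AAV8-AGXT (SD, n = 4 each) and did not pass the test (log2 fold change 0.25 ± 0.20, SE, adjusted p = 0.458 in edgeR). A readthrough gene on the same strand, Gm20708, covers 44.25% of the exon bases of Afmid and had 0 counts in all 8 mice. Strand does not tell Gm20708 and Afmid apart, so read pairs at their shared bases may not have been counted for either. For the bases shared with Tk1, the strand setting of the counting is not given in the sources used here. The count of Afmid is uncertain at both places.

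Kmo (kynurenine 3-monooxygenase, ENSMUSG00000039783, chr1:175620381-175662116) hydroxylates kynurenine and commits it to the NAD side of the pathway. In AAV8-GFP mice 303, 311, 314 and 315 it was 212, 210, 218 and 237 CPM, a coefficient of variation of 5.55%. In AAV8-AGXT mice 308, 309, 316 and 319 it was 307, 353, 262 and 367 CPM, all above the first group. In TPM, explained below and not scaled by TMM, the groups overlapped, at 108 to 122 and 108 to 175 TPM. The log2 fold change was 0.56 ± 0.13 (SE, adjusted p = 0.0465 in edgeR), or 1.47-fold. This call lay near the threshold and was lost in 7 of the 8 fits that left out a mouse (all but that without mouse 316) and in 5 of 10 other settings, where adjusted p reached 0.305.

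Aadat (aminoadipate aminotransferase, ENSMUSG00000057228, chr8:60505932-60545677) converts kynurenine to kynurenic acid and also acts in lysine breakdown. Its level was 73.7, 56.4, 49.7 and 81.0 CPM in AAV8-GFP mice 303, 311, 314 and 315 and 137, 156, 99.3 and 96.2 CPM in AAV8-AGXT mice 308, 309, 316 and 319. The groups did not overlap, although mouse 319 lay close to mouse 315. The log2 fold change was 0.90 ± 0.20 (SE, adjusted p = 0.0427 in edgeR), or 1.87-fold. It was called in the fits without mouse 315 or 316 and in none of the other 6, in which adjusted p reached 0.152.

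The next enzymes of the trunk, Kynu and Haao, had higher means but overlapping groups and did not pass the test. Kynu (kynureninase, ENSMUSG00000026866, chr2:43555329-43682715), which splits alanine from hydroxykynurenine, was 110, 103, 92.5 and 120 CPM in AAV8-GFP mice and 142, 155, 119 and 116 CPM in AAV8-AGXT mice, in the order of mice used above (log2 fold change 0.33 ± 0.13, SE, adjusted p = 0.146 in edgeR). Within each group the mice fell in the same order for Kynu as for Aadat, mouse 315 before 303, 311 and 314, and mouse 309 before 308, 316 and 319. Haao (3-hydroxyanthranilate 3,4-dioxygenase, ENSMUSG00000000673, chr17:83831156-83847963) was 283, 299, 270 and 343 CPM and then 491, 332, 333 and 435 CPM, with only mouse 315 reaching into the AAV8-AGXT range (log2 fold change 0.41 ± 0.16, SE, adjusted p = 0.139 in edgeR). Neither gene was called in any of the 18 alternative fits.

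The enzymes at the fork after Haao differed little in mean. Acmsd (aminocarboxymuconate semialdehyde decarboxylase, ENSMUSG00000026348, chr1:127729413-127767978) was 6.44, 9.18, 7.06 and 16.1 CPM in AAV8-GFP mice and 10.5, 10.1, 8.01 and 7.98 CPM in AAV8-AGXT mice. Mouse 315 had the highest value of all, and the log2 fold change of -0.08 ± 0.28 (SE, adjusted p = 0.876 in edgeR) became 0.27 (adjusted p = 0.384) without it. Qprt (quinolinate phosphoribosyltransferase, ENSMUSG00000030674, chr7:127107114-127122226), the entry into NAD, was 132, 147, 173 and 181 CPM and then 165, 152, 131 and 187 CPM, with almost the same range in both groups (log2 fold change 0.01 ± 0.15, SE, adjusted p = 0.983 in edgeR). Acmsd had a coefficient of variation of 45.5% among AAV8-GFP mice, which limits what can be seen of it.

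Nampt and Nnmt, which recycle and remove nicotinamide, were the most uneven among AAV8-AGXT mice together with Tdo2. Nampt (nicotinamide phosphoribosyltransferase, ENSMUSG00000020572, chr12:32819545-32853349) was 31.9, 38.1, 49.6 and 37.0 CPM in AAV8-GFP mice and 35.6, 64.5, 49.5 and 62.3 CPM in AAV8-AGXT mice. Mice 309 and 319 were above the first group and mice 308 and 316 within it, and the log2 fold change of 0.44 ± 0.20 (SE, adjusted p = 0.191 in edgeR) did not pass the test. Nnmt (nicotinamide N-methyltransferase, ENSMUSG00000032271, chr9:48591877-48605153) was 45.3, 56.6, 51.9 and 58.6 CPM in AAV8-GFP mice and 119, 45.4, 112 and 286 CPM in AAV8-AGXT mice. Mouse 309 was thus at the bottom of the AAV8-GFP range while the other three were above it, and the coefficient of variation rose from 11.1% to 72.7%. Its log2 fold change of 1.41 ± 0.43 (SE) was the largest of the 10 genes but missed the threshold (adjusted p = 0.0833 in edgeR), and it was 1.69 (adjusted p = 0.0358) without mouse 309 and 0.80 (adjusted p = 0.164) without mouse 319. Without a low-count filter Nnmt was called (adjusted p = 0.046 in edgeR).

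**Figure D2:**
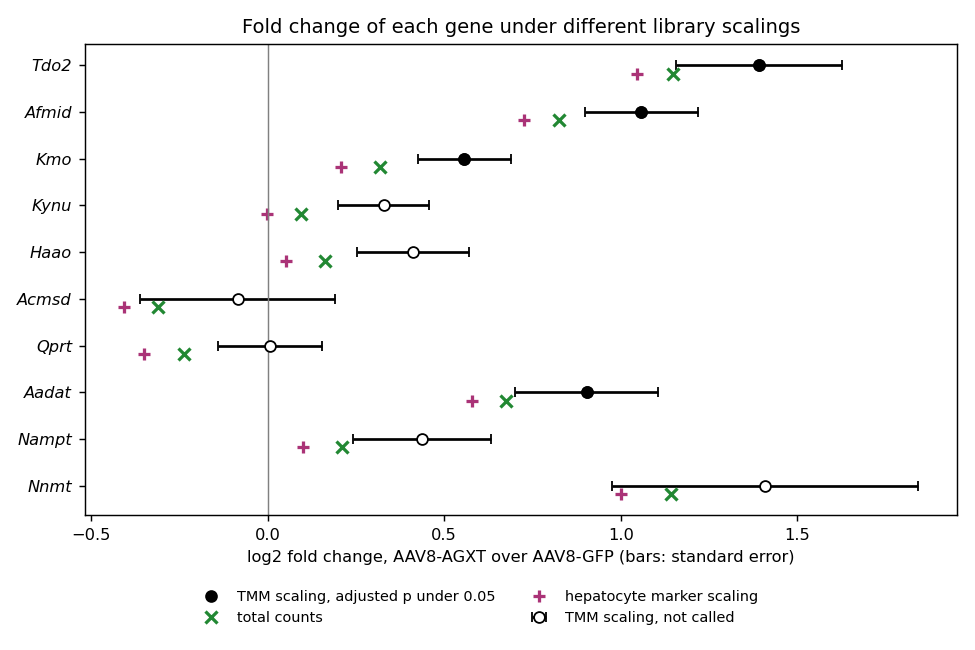
Log2 fold change of AAV8-AGXT over AAV8-GFP for each enzyme, in pathway order, with TMM scaling (circles, bars give the SE, filled where adjusted p was under 0.05), with total counts (green crosses) and with scaling to 9 hepatocyte markers (purple plus signs). Both other scalings shift every gene to the left, and Tdo2, Afmid, Aadat and Nnmt stay furthest to the right.

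The sum of the hepatocyte markers moved with these differences. The genes were therefore also read relative to those markers, a scaling chosen after the marker values were seen. In bulk RNA, fewer cells of a type and less RNA per cell cannot be told apart. The mean log2 CPM of the 9 markers was 11.7 ± 0.08 in AAV8-GFP mice and 12.0 ± 0.24 in AAV8-AGXT mice (SD, n = 4 each), although 0 of the 9 were called (5 at an unadjusted p under 0.05 in edgeR, which 26.2% of all tested genes reached). With libraries scaled to the markers, the median log2 fold change of all genes was -0.32 and 4.59% of genes were called. Tdo2 was then 1.05 (adjusted p = 0.0337 in edgeR) and the 1 gene of the 10 still called, Afmid was 0.73 (0.0508), Aadat 0.58 (0.0852) and Kmo 0.21 (0.305). Relative to the markers in each mouse, Kmo and Aadat no longer separated the groups. Tdo2 and Afmid still did, with Tdo2 at -3.07 to -2.44 log2 units in AAV8-GFP mice and -2.27 to -1.42 in AAV8-AGXT mice. Qprt lay lower relative to the markers in all AAV8-AGXT mice (-4.82 to -4.65) than in any AAV8-GFP mouse (-4.63 to -4.14), whereas the ranges of its CPM overlapped. With libraries scaled to the markers Qprt was not called (log2 fold change -0.351, adjusted p = 0.114 in edgeR). How many of all genes separate the groups relative to the markers was not counted. With total counts, where the median of all genes was -0.22, Tdo2 and Afmid were called and Kmo (adjusted p = 0.112) and Aadat (0.0601) were not.

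Markers of other cell types did not share a direction. The summed level of 5 bile duct markers was 225 to 673 CPM in AAV8-GFP mice and 74.1 to 272 CPM in AAV8-AGXT mice, with all 5 estimates lower and 0 called (5 at an unadjusted p under 0.05, edgeR). This sum was mostly Spp1, at a mean of 484 of 533 CPM in AAV8-GFP mice and 157 of 179 CPM in AAV8-AGXT mice. The 8 stellate cell and fibroblast markers reached 490 to 842 CPM and 246 to 576 CPM, and 1 was called, Acta2, the smooth muscle actin of activated stellate cells (log2 fold change -0.99 ± 0.22, SE, adjusted p = 0.0427 in edgeR), a call that was lost in all 8 fits that left out a mouse. The 12 macrophage markers summed to 608 to 1037 CPM and 290 to 1125 CPM, the 8 lymphocyte markers to 14.1 to 21.2 CPM and 7.18 to 14.7 CPM, and the 6 endothelial markers to 125 to 188 CPM and 134 to 240 CPM, with 0 called in each (5, 2 and 0 at an unadjusted p under 0.05, against 26.2% of all tested genes). All 6 endothelial estimates were higher, 5 macrophage estimates were higher and 7 lower, and 2 lymphocyte estimates were higher and 6 lower. Of the stellate cell and fibroblast estimates, 2 were higher and 6 lower. No marker of these lists was at 0 counts in all mice. The part of cell makeup in the differences of the 10 enzymes was not tested.

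Per exon length, in TPM (counts divided by exon length and set to a common sum per mouse, not scaled by TMM), the order of the enzymes in AAV8-GFP livers ran from Tdo2 at 295 ± 61.3 TPM to Afmid at 6.79 ± 1.27 TPM (SD, n = 4 each). Haao (158 ± 11.2), Qprt (149 ± 22.5) and Kmo (115 ± 5.71 TPM) followed Tdo2, and neighbours among these 3 overlapped. Nnmt (83.7 ± 10.1) and Aadat (73.7 ± 12.1 TPM) overlapped each other, Kynu (42.7 ± 2.18) and Nampt (19.4 ± 4.71 TPM) stood apart, and Acmsd (8.39 ± 3.37 TPM) overlapped Afmid. In AAV8-AGXT livers Tdo2 led at 634 ± 101 TPM, and Nnmt, Haao, Kmo, Qprt and Aadat came next, from 181 ± 131 to 117 ± 35.0 TPM, each overlapping its neighbour. Afmid, at 11.8 ± 1.15 TPM, lay above Acmsd at 6.68 ± 1.17 TPM without overlap. The exon length of Afmid includes the bases shared with Gm20708, so its TPM may be too low. Its place in both orders is therefore uncertain.

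**Figure D3:**
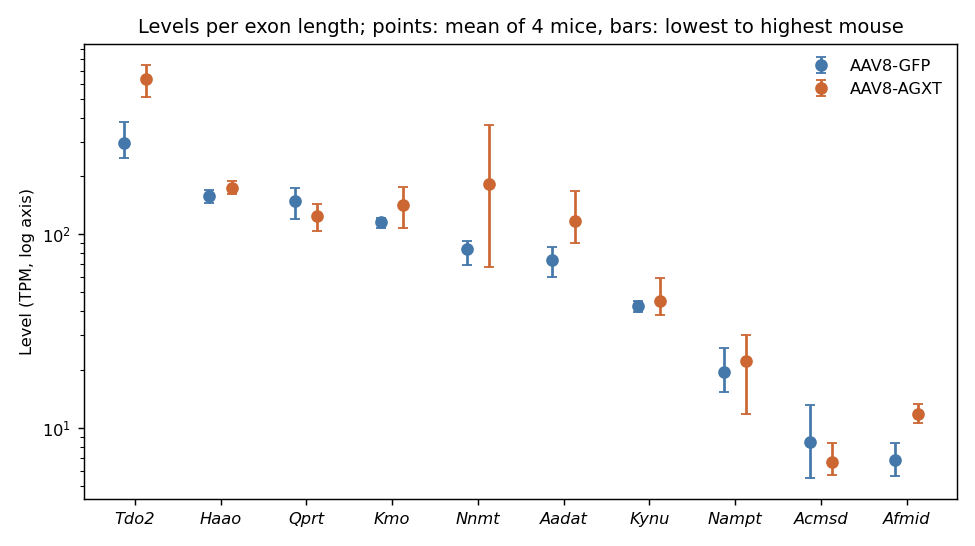
Level per exon length of each enzyme in TPM on a log axis, ordered by the AAV8-GFP mean; points are means of 4 mice and bars run from the lowest to the highest mouse. Tdo2 leads in both groups, from 247 to 381 TPM in AAV8-GFP mice and from 509 to 751 TPM in AAV8-AGXT mice. Afmid and Acmsd are lowest, and the place of Afmid is uncertain because of the bases it shares with Gm20708.

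Ratios between enzymes on diverging branches of the pathway were taken within each mouse, since such ratios hardly depend on library scaling. They are given as a description with no test. At the fork after Haao, the log2 ratio of Qprt to Acmsd (in log2 CPM) was 4.10 ± 0.48 in AAV8-GFP mice and 4.10 ± 0.29 in AAV8-AGXT mice (SD, n = 4 each). At the kynurenine branch, Kmo over Aadat was 1.52, 1.90, 2.13 and 1.55 in AAV8-GFP mice and 1.16, 1.18, 1.40 and 1.93 in AAV8-AGXT mice, so that 3 of 4 AAV8-AGXT mice lay below all AAV8-GFP mice and mouse 319 did not. Nampt over Nnmt was -0.50, -0.57, -0.07 and -0.66 in AAV8-GFP mice and -1.74, 0.51, -1.18 and -2.20 in AAV8-AGXT mice. Mouse 309 was above, and the other three below, every AAV8-GFP mouse.

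**Figure D4:**
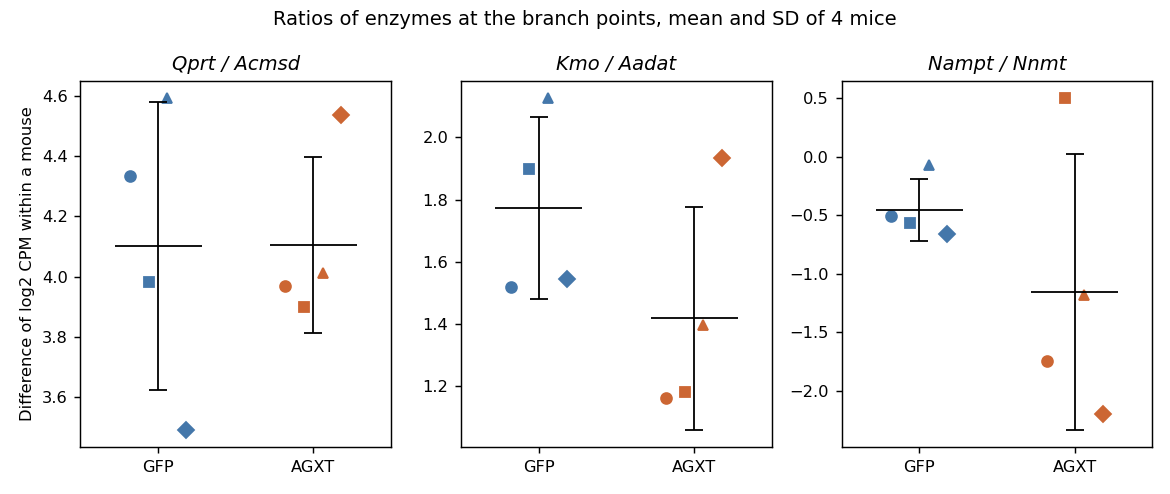
Difference of log2 CPM between 2 enzymes within each mouse, for Qprt and Acmsd, Kmo and Aadat, and Nampt and Nnmt; points are mice in the colours and marker shapes of the plot of levels by mouse, long lines means and bars the SD of 4 mice. Groups overlap in all 3 panels, and mouse 309 lies opposite to the other AAV8-AGXT mice for Nampt over Nnmt.

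Other genes of tryptophan metabolism, from a list of 15, went the same way where they passed. Of 11 with enough counts, 3 were higher and 0 lower, against 2.45% higher and 1.9% lower over all tested genes. The median log2 fold change of the 11 was 0.39 with TMM scaling and 0.04 with hepatocyte marker scaling, against 0.02 and -0.32 over all tested genes. The 3 called genes act in the breakdown that follows Acmsd and joins lysine breakdown. Gcdh, the glutaryl-CoA dehydrogenase, was 454 ± 39.2 CPM in AAV8-GFP mice and 717 ± 82.0 CPM in those given AAV8-AGXT (SD, n = 4 each, log2 fold change 0.66 ± 0.13, SE, adjusted p = 0.0349 in edgeR). Aldh8a1, which oxidizes the product of Acmsd, rose from 194 ± 21.3 to 284 ± 23.3 CPM (log2 fold change 0.55, adjusted p = 0.0419). Dlst, a subunit of the 2-oxoglutarate dehydrogenase complex, rose from 180 ± 15.1 to 258 ± 27.2 CPM (log2 fold change 0.52, adjusted p = 0.0444). Inmt, a methyltransferase of tryptamine, was 184 ± 49.7 and 196 ± 25.1 CPM and did not pass the test (adjusted p = 0.81). With hepatocyte marker scaling none of the 3 was called, and their log2 fold changes were 0.32, 0.21 and 0.17. Leaving out a mouse kept the call of Gcdh in 3, of Aldh8a1 in 2 and of Dlst in 1 of 8 fits. The other enzymes of the first steps, named after their values were seen, did not pass the test. Ido2, which acts at the step of Tdo2, was 26.5 ± 12.0 and 43.6 ± 7.57 CPM (SD, n = 4 each, log2 fold change 0.72, adjusted p = 0.124 in edgeR), and Ido1, of the same step, had 0 to 2 raw counts per mouse and was not tested. Of the aminotransferases that can make kynurenic acid beside Aadat, Kyat1 had a log2 fold change of 0.39 (adjusted p = 0.343), Kyat3 of -0.26 (0.629) and Got2 of 0.39 (0.123).

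In the other genes of NAD metabolism, 0 of 12 tested were called (2 at an unadjusted p under 0.05, edgeR; 15 of 16 listed genes were matched and Nmrk2 was at 0 counts in all mice). Their median log2 fold change was 0.30 with TMM scaling and -0.05 with hepatocyte marker scaling. Per exon length (TPM) the most abundant were Nadk, the NAD kinase, at 253 ± 30.9 and 277 ± 14.4 CPM (SD, n = 4 each), and Naprt, which salvages nicotinic acid, at 118 to 173 and 119 to 211 CPM. Of 17 enzymes that split NAD, 1 was called, the mitochondrial deacylase Sirt3, which was 45.3 ± 3.13 and 63.0 ± 4.47 CPM (log2 fold change 0.48 ± 0.09, SE, adjusted p = 0.0348 in edgeR). With hepatocyte marker scaling Sirt3 was at 0.13 (adjusted p = 0.448), and its call held in 3 of 8 fits that left out a mouse. Sirt2 (84.1 ± 3.13 and 80.9 ± 3.42 CPM) and Parp3 (107 ± 6.31 and 91.2 ± 9.99 CPM), the most abundant of that list by TPM, did not pass the test.

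Among 5 tested carriers of tryptophan and kynurenine, 1 was called and it was lower. Slc3a2, the heavy chain shared by several amino acid exchangers, was 79.3 ± 5.21 CPM in AAV8-GFP mice and 53.8 ± 7.94 CPM in those given AAV8-AGXT (SD, n = 4 each, log2 fold change -0.56 ± 0.12, SE, adjusted p = 0.0376 in edgeR). Its call held in all 10 other settings and in 1 of 8 fits that left out a mouse. Slc16a10, an aromatic amino acid transporter, was 74.5 ± 18.6 and 120 ± 12.7 CPM without overlap and missed the threshold (adjusted p = 0.0523). Kynurenine and kynurenic acid are known ligands of the aryl hydrocarbon receptor, and 0 of 7 tested genes of that receptor, its partners and targets were called (1 at an unadjusted p under 0.05, edgeR). Cyp1a2, its most abundant target here, was 82.5 to 209 CPM in AAV8-GFP mice and 183 to 731 CPM in AAV8-AGXT mice (log2 fold change 1.32 ± 0.41, SE, adjusted p = 0.0845), and Nqo1 had a log2 fold change of -0.37 ± 0.20 (SE, adjusted p = 0.268).

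Clock genes are listed because hepatic enzymes can follow the time of day and the hour of collection is not given in the sources used here. Of 11 clock genes 1 was called, the repressor Cry2, at 21.6 ± 6.17 CPM in AAV8-GFP mice and 38.4 ± 6.17 CPM in those given AAV8-AGXT (SD, n = 4 each, log2 fold change 0.84 ± 0.20, SE, adjusted p = 0.0495 in edgeR). An unadjusted p under 0.05 was reached by 7 of 11, against 26.2% of all tested genes. The call of Cry2 held in 5 of 10 other settings and in 2 of 8 fits that left out a mouse. The clock activators Npas2 (log2 fold change -1.46, adjusted p = 0.0546) and Arntl (-0.83, 0.0843) and the repressor Cry1 (-0.56, 0.0814), like Dbp chosen after their values were seen, missed the threshold, although their AAV8-AGXT values lay wholly below the AAV8-GFP range. The clock output gene Dbp was 3.44 to 32.8 CPM in AAV8-GFP mice and 62.1 to 84.7 CPM in AAV8-AGXT mice (adjusted p = 0.0724 in edgeR). Per3, also chosen after its values were seen, was 3.51 to 10.6 and 11.5 to 28.9 CPM (log2 fold change 1.41, adjusted p = 0.0622 in edgeR). The abundant Nr1d1 (72.4 ± 24.2 and 117 ± 21.4 CPM) and Per1 (73.0 ± 11.3 and 88.9 ± 11.6 CPM) did not pass the test. These differences moved with those of Tdo2, Afmid, Kmo and Aadat, and their part in them was not tested.

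Genes most like the 3 enzymes with the smallest p were sought over the 8 mice by Pearson's r of log2 CPM, with r of the deviations from group means beside it. For Afmid they were Ptprd (r = 0.989, deviations 0.950), Gcnt4 (0.987, 0.963) and Smim13 (0.985, 0.941). For Tdo2 they were Cyp4v3 (0.984, 0.963), Ndufv1 (0.984, 0.919) and Lclat1 (0.983, 0.906), and for Aadat they were Cat (0.988, 0.971), Nup155 (0.975, 0.913) and Slco1a1 (0.974, 0.916). These values are the highest of 15248 genes in the same 8 libraries and serve as a description.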

How the data were processed

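Liver RNA of 4 AAV8-GFP and 4 AAV8-AGXT mice was sequenced as stranded mRNA libraries. Per the study's methods, the authors used Trimmomatic 0.35 for trimming, HISAT2 2.1.0.13 for mapping (GRCm38, Ensembl annotation) and HTSeq for counting; FastQC 0.11.8 is named in the submitters' processing notes. The deposited values are raw counts per gene, one table per mouse, and no sample was left out. Read pairs at several places were not counted, and the strand option is not stated. HTSeq's tallies that name no gene were left out of library sizes, and counts on genes were 56.3% to 69.1% of all tallied pairs.

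Gene symbols, positions and exon lengths came from GENCODE M21 (GRCm38), which matched 52489 of 52636 genes. Counts were tested with edgeR 4.0.16 in R 4.3.3 (filterByExpr, TMM, quasi-likelihood test, treatment as the only term, Benjamini-Hochberg over 15248 genes, calls at an adjusted p under 0.05). Log2 fold changes used a prior count of 0.125, standard errors came from the unshrunken coefficient and F, and a prior count of 2 was added for log2 CPM. TPM used the union of exons. The fit was tested on simulated data. Alternatives were DESeq2 1.42.0, limma 3.58.1 (voom, and voom with quality weights), robust edgeR, 4 other scalings, 2 filters and each mouse left out. The scaling to hepatocyte markers was added after the data were seen.

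The 10 genes, the 12 gene lists and the tests were chosen with earlier results of these data known. Named are all 10 genes; from the 6 pathway lists the called genes, at most 5 per list, and the 2 with the highest mean TPM; from the 6 marker lists the genes called or at 0; and the 3 genes most like each of the 3 enzymes with the smallest p. Alb, Tf and Spp1 of the marker lists were named after their values were seen. So were Ido1, Ido2, Kyat1, Kyat3 and Got2 of the tryptophan list and Npas2, Arntl, Cry1, Dbp and Per3 of the clock list. Pnp, of the NAD list, was not matched. Promoter windows are from RefSeq (GRCm38.p6), which had no entry used here for Kynu and Nnmt; that of Acmsd is not reported here.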

Additional observations from a re-analysis of the deposited data

Results flagged for a closer look

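Tdo2 in AAV8-AGXT mouse 308, at 1750 CPM, lay further from its group than the criterion for groups of 4 allows (Dixon's ratio of gap to range 0.837, above the critical value). It was the only such value among 26 groups of 4 mice examined (10 genes and 3 ratios in each group), and chance alone flags about 1 in 20. The same mouse had the lowest share of read pairs counted on genes, 56.3%, and the highest levels of Afmid, Haao and Acmsd in its group.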

How the results depend on the processing

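No paired analysis was possible because the groups share no animal numbers. Counting 4 of the 10 enzymes as called changed to 2 with total counts and to 1 with hepatocyte marker scaling. It was 3 with upper-quartile scaling and with at least 10 counts in every mouse, both without Kmo. Without a low-count filter it was 4, but these were Tdo2, Afmid, Aadat and Nnmt. When 1 mouse was left out it ranged from 0 to 4: 0 without mouse 311, 314 or 319, 1 without 303 and 2 without 308. Calls over all genes, 664 in edgeR, were 2101 with DESeq2, 1410 with quality weights and 1001 with total counts, and ranged from 2 (without mouse 311) to 643 with 1 mouse left out, with 15 without 314, 14 without 319, 177 without 308, 193 without 303 and 411 without 316. Calls in the 6 pathway lists, 6 in edgeR, were 15 with DESeq2, 10 with voom, 12 with quality weights and 10 without a low-count filter, and ranged from 0 to 7 with 1 mouse left out. DESeq2, voom, quality weights and robust edgeR each called the same 4 enzymes, Tdo2, Afmid, Kmo and Aadat. Qprt changed sign, with log2 fold changes of -0.00444 in DESeq2, -0.0222 with quality weights, -0.00704 with DESeq2 size factors, -0.0569 with upper-quartile scaling, -0.236 with total counts, -0.0159 without a filter, -0.0333 with at least 10 counts per mouse, -0.351 with hepatocyte markers, and -0.0777 to 0.0941 with 1 mouse left out. Acmsd ran from -0.24 to 0.27 with 1 mouse left out, and Kynu was -0.000987 with hepatocyte markers. The cause of these shifts was not tested. The group differences in ratios between enzymes moved by less than 1 pooled SD of both groups in all alternatives tried. That SD was widest for Nampt over Nnmt, at 0.86. There the difference went from -0.70 to -1.26 without mouse 309 and to -0.36 without mouse 319. Dividing TPM by TMM factors moved 4 of 20 mean levels by more than 1 SD (Kmo, Kynu and Haao in AAV8-GFP mice and Haao in AAV8-AGXT mice). With 4 mice per group, the spread between mice limits what can be told for Acmsd, Nampt and Nnmt.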
